A study of Mus musculus with 7 samples.

Results

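The imprinted growth genes and noncoding RNAs described here are 10 named genes, H19, Igf2, Dlk1, Meg3, Rian, Peg3, Plagl1, Grb10, Mest and Igf2r, among 34592 features counted by RNA sequencing of mouse Group 3 medulloblastoma (G3 MB). They were chosen by name, with earlier results of these data known, and all 10 had enough reads to enter the test. RNA was taken from 7 frozen tumor chunks, 4 labelled WDR11OE (enforced expression of WDR11) and 3 control. All 7 tumors came from 1 tumorsphere line, made from cerebellar granule neuron progenitors with a Myc-IRES-GFP retrovirus, that was infected in culture and grown in the cortices of CD1-nu/nu mice until the hosts were moribund. In the study's methods the progenitors of its G3 MBs were from Trp53-/-; Cdkn2c-/- mice at postnatal day 7, so Myc and both deletions are shared by the 2 groups. The lentivirus for the WDR11OE group was pCDH-EF1-WDR11-T2A-copGFP, with WDR11 behind the EF1 promoter, and that for the controls was the empty vector pCDH-EF1-MCS-T2A-copGFP, while the treatment label of the controls reads none. The infected cells were implanted unsorted, and the host was not separated from the tumor in the chunks. No source used here says whether the libraries of a group came from separate infections, so p-values measure the spread between these tumors.

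An imprinted gene is read mainly from the copy inherited from one parent, and imprinted genes lie in clusters in which a control region that is methylated on one parental chromosome sets which genes are read. Many paternally expressed members, such as Igf2 and Dlk1, are known to favor fetal growth and are high in embryonic tissue and low in most adult tissue, while several maternally expressed members, such as H19, Grb10 outside the brain and Igf2r, are known to restrain growth. Noncoding RNAs such as H19, Meg3 and Rian are made from the maternal copy of the same clusters, and Meg3 and Rian are abundant in neurons of the adult brain. The reads do not separate the parental alleles, so every value below is the sum over both copies.

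The table of counts held a row for human WDR11, the transgene, beside a row for mouse Wdr11. The human row was at 2.03, 2.19 and 3.13 CPM (counts scaled to library size, with TMM factors) in control tumors 1, 2 and 3. It was at 4.38, 2.11, 3.05 and 0.624 CPM in tumors 1, 2, 3 and 4 labelled WDR11OE. The groups overlapped, and the lowest value of all was that of a tumor labelled WDR11OE. The log2 fold change, which here and below compares WDR11OE with control, was 0.05 (SE 0.58, 95% interval −1.30 to 1.40, edgeR quasi-likelihood adjusted p = 0.961). The mouse gene was at 58.3 to 59.3 CPM in control tumors and at 61.0 to 68.9 CPM in the tumors labelled WDR11OE (log2 fold change 0.16, SE 0.06, edgeR adjusted p = 0.0910). The transgene's row therefore did not set the groups apart, and the directions below are those between tumors as labelled. By other methods, the paper reports raised WDR11 transcript in its overexpressing tumors (qRT-PCR) and WDR11 protein in tumorspheres derived from such tumors (immunofluorescence). The sources used here do not say whether those were the tumors sequenced. Total counts ran from 32116095 to 87141305 per tumor, and each group's library identifiers form a series of their own, so that series and the condition cannot be told apart.

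The tumor chunks held markers of several cell types at levels that differed between tumors. The sum of 7 neuron markers, Snap25, Syt1, Rbfox3, Gad1, Slc17a7, Camk2a and Nefl, ran from 67.1 to 436 CPM in control tumors and from 12.3 to 636 CPM in the tumors labelled WDR11OE, and 0 of the 7 passed the test between the groups. Of 7 skeletal muscle markers 5 of 6 tested were higher, with sums of 2.85 to 4.75 CPM in control and 35.3 to 105 CPM in WDR11OE. The sum of 7 fibroblast and meningeal markers ran from 3219 to 3997 CPM in control and from 1223 to 1606 CPM in WDR11OE, with 1 of 7, Col3a1, lower. For the choroid plexus, whose epithelium is known to make Igf2, 2 of 4 tested markers, Clic6 and Enpp2, were lower, with sums of 36.0 to 50.0 CPM against 26.9 to 33.4 CPM, and its defining marker Ttr was at 0.460 to 7.11 CPM in control and 0.0499 to 1.08 CPM in WDR11OE. Of endothelial and pericyte markers 2 of 7 and 2 of 6 were lower, and none of the astrocyte, oligodendrocyte, microglial or erythroid markers passed. Over all 17389 tested genes 15.8% were lower and 18.1% were higher, and counts of 1 or 2 in such short lists are weak beside these shares. Of the granule lineage markers Atoh1 was listed at 0 in every tumor and Barhl1 was at 0 in all but 1, while Pax6 (17.2 to 31.1 CPM) and Zic1 (1.76 to 16.8 CPM) were measured. In such bulk samples, fewer cells of a type and less RNA per cell cannot be told apart.

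Start regions are shown for Igf2, the member with the largest fall in CPM, and for Dlk1, Meg3 and Rian, which lie in 1 cluster on chromosome 12 and are read from the same strand. Each sequence is the 250 bases before a start in the RefSeq promoter table (GRCm38.p6), matched to a unique place in NCBIM37, the build of the counts (mm9), whose coordinates are given. CG dinucleotides, the sites of DNA methylation, are in capitals. Of the 4 RefSeq entries for Igf2 and the 2 for Meg3, the entry with the most CG is shown.
Igf2, chr7:149844710-149844959, minus strand: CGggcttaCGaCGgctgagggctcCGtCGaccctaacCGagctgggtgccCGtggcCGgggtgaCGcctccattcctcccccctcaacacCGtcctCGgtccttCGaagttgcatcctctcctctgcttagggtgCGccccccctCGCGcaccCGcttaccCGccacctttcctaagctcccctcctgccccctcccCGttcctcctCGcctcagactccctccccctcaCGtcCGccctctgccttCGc
Dlk1, chr12:110690783-110691032, plus strand: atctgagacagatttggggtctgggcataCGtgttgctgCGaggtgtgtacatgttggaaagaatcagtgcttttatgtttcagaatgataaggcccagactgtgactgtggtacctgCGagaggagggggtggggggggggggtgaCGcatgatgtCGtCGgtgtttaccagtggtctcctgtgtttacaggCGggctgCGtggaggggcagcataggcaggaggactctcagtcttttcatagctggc
Meg3, chr12:110778956-110779205, plus strand: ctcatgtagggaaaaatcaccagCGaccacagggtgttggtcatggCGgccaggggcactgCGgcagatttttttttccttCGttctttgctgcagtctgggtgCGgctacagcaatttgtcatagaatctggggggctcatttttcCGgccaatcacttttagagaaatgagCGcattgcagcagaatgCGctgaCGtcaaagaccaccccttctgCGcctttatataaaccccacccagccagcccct
Rian, chr12:110841905-110842154, plus strand: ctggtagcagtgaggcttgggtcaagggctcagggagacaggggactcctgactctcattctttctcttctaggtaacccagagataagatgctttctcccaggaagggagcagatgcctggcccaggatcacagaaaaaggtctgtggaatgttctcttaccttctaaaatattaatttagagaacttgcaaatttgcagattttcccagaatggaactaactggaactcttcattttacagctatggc
The Igf2 sequence held 22 CG, a number reached by 14.8% of the 32851 promoters in the table over the same length, against a median of 6. The Meg3 sequence held 10 CG and the Dlk1 sequence 8, reached by 37.8% and 43.0% of promoters, and the Rian sequence held 0, as did 7.87% of all promoters. Methylation was not measured in these tumors. Among the other members, the entry with the most CG held 40 for Grb10, 27 for Igf2r, 19 for Plagl1, 14 for Mest and 8 for Peg3. H19 had no entry.

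The plus strand that carries Meg3 and Rian, both read from the maternal copy, also carries a long row of microRNA precursors. Shown here, with the seed (bases 2 to 8) in capitals, are the mature microRNAs from RefSeq for the 6 precursor rows near Meg3 with the most reads, a choice made after their counts were seen, and for Mir483, which lies inside Igf2 and was the one microRNA row inside or near H19, Igf2, Mest or Meg3 to pass the filter on low counts.
mmu-miR-453: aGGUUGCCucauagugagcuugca
mmu-miR-382-5p: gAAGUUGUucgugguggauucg
mmu-miR-382-3p: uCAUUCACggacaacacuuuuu
mmu-miR-1188-5p: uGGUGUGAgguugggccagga
mmu-miR-1188-3p: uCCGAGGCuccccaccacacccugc
mmu-miR-127-5p: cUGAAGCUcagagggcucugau
mmu-miR-127-3p: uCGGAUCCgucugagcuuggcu
mmu-miR-432: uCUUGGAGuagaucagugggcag
mmu-miR-134-5p: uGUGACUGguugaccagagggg
mmu-miR-134-3p: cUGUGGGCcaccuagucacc
mmu-miR-483-5p: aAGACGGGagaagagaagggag
mmu-miR-483-3p: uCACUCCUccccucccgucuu
No seed occurred more than once among these sequences. The libraries were made from long RNA, so the reads over such rows come from precursor or host transcripts and do not measure the mature microRNAs.

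Lower in the tumors labelled WDR11OE were Igf2, Dlk1, Peg3, Plagl1 and Grb10, with fitted falls from 1.40-fold (Plagl1) to 5.64-fold (Dlk1), and no member passed as higher. At an adjusted p under 0.05 in edgeR's quasi-likelihood test, 5 of the 10 members were lower, beside 15.8% of all 17389 genes tested, and 0 of 10 were higher, beside 18.1%. The groups did not overlap for the same 5 members, all lower, beside 19.1% of tested genes that did not overlap in that direction. With a further limit of at least a 2-fold change and an average log2 CPM above 0, Igf2 and Dlk1 (2 of 10) were lower, beside 3.45% of tested genes, and 0 were higher, beside 2.36%. The median log2 fold change was −0.51 over the members and 0.08 over all tested genes. Members were classed by their usual parental origin, and the active copy was not measured in these tumors. Of the 5 paternally expressed members 4 (Igf2, Dlk1, Peg3, Plagl1, and not Mest) were lower, beside 15.8% of all tested genes. Of the 4 maternally expressed members (H19, Meg3, Rian, Igf2r) 0 were lower, beside 15.8%, and 0 were higher, beside 18.1%. In a class of 4, 0 is near those shares, and Meg3 and Rian had wide intervals. Grb10, whose active copy depends on the tissue, was lower. This split covers the members only. Imprinted genes outside them moved in both directions, as given below, and were not split by parental origin. The count of 5 depended on single tumors. It was 2 without control tumor 1, without control tumor 3 or without WDR11OE tumor 2, 3 without control tumor 2 or without WDR11OE tumor 1, 4 without WDR11OE tumor 3, and still 5 without WDR11OE tumor 4.

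**Figure D1:**
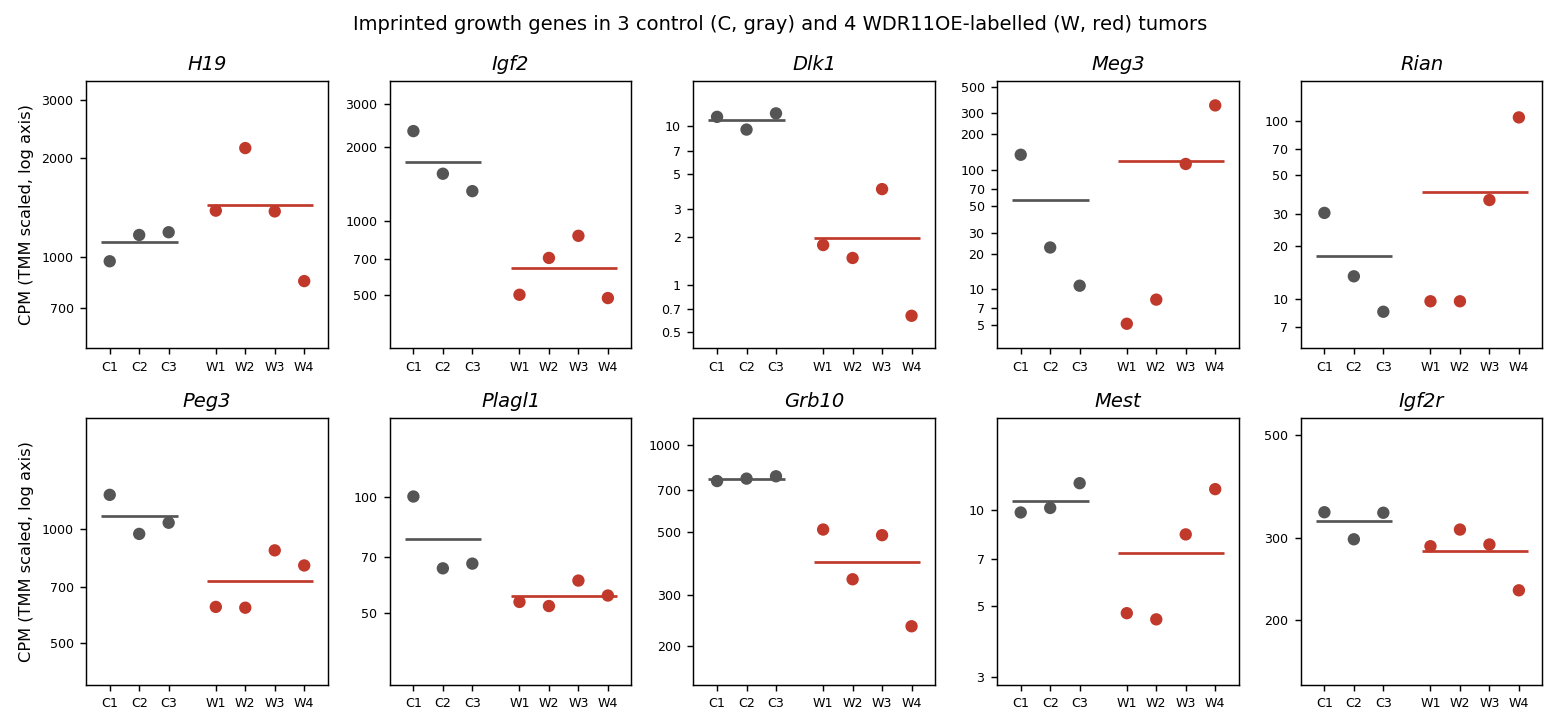
Each panel plots 1 gene, with TMM-scaled CPM on a log axis against the 3 control (C, gray) and 4 WDR11OE-labelled (W, red) tumors. Points are tumors and lines are group means. The groups are apart for Igf2, Dlk1, Peg3, Plagl1 and Grb10 and overlap for the other members, and Meg3 spans 5.16 to 349 CPM.

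**Figure D2:**
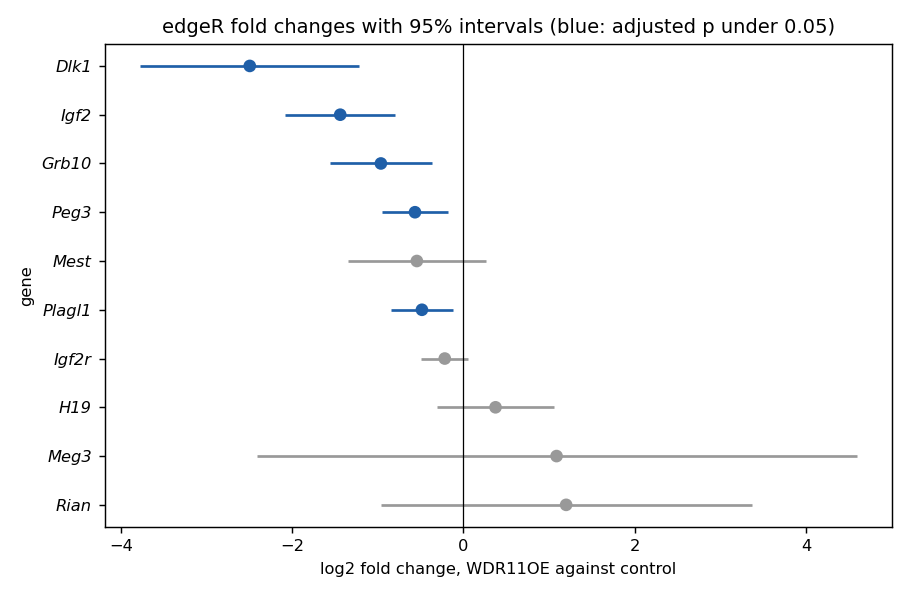
The log2 fold change of WDR11OE against control from edgeR is plotted for each member, with 95% intervals as lines and blue for an adjusted p under 0.05. The intervals of Igf2, Dlk1, Peg3, Plagl1 and Grb10 lie below 0, and that of Meg3 is the widest, from −2.42 to 4.59.

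Per length of transcript, H19 and Igf2 stood far above the other members. In control tumors H19 was at 409 to 502 RPKM (CPM per kilobase of merged exons) and Igf2 at 241 to 424 RPKM, and these ranges overlapped. Grb10 (81.9 to 85.1 RPKM) and Peg3 (72.8 to 92.4 RPKM) followed and overlapped each other, then Igf2r (31.6 to 36.2 RPKM) and Plagl1 (8.95 to 13.7 RPKM). Meg3 (0.595 to 7.44 RPKM), Rian (1.04 to 3.73 RPKM), Mest (2.49 to 3.07 RPKM) and Dlk1 (1.68 to 2.13 RPKM) were lowest. The ranges of Meg3 and Rian overlapped each other and those of Mest and Dlk1, and Mest lay above Dlk1. In the tumors labelled WDR11OE the H19 range of 356 to 905 RPKM lay above the Igf2 range of 88.5 to 159 RPKM, and Dlk1 (0.112 to 0.708 RPKM) was last in the order of means, as it was in the controls, and overlapped Meg3 (0.285 to 19.3 RPKM).

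Igf2 encodes insulin-like growth factor 2, a secreted fetal growth factor that signals through the receptor Igf1r and a form of Insr. The gene lies at chr7:149836673-149852721 on the minus strand (NCBIM37), and the CG-rich sequence above is upstream of a start inside it. Igf2 was at 2332, 1562 and 1327 CPM in control tumors 1, 2 and 3, and at 501, 709, 872 and 486 CPM in WDR11OE tumors 1, 2, 3 and 4. Every control tumor was above every tumor labelled WDR11OE, and control tumor 1 was the highest. Igf2 fell by 1.44 on the log2 scale, or 2.71-fold (SE 0.27, 95% interval −2.08 to −0.80, edgeR adjusted p = 0.00687), and the two-sided exact permutation test over the 35 splits gave p = 0.0286, the smallest it allows. It stayed past the threshold under all 16 alternatives, with values from −1.62 to −1.17, the last of them without control tumor 1. The fibroblast and meningeal sum and the choroid plexus sum given above were also lower in every tumor labelled WDR11OE, and the muscle sum was higher in every one, and their part in the result was not tested.

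H19 is a maternally expressed noncoding RNA downstream of Igf2 at chr7:149761434-149764048, on the same strand, that shares its enhancers and is the host of Mir675. H19 was at 971, 1168 and 1190.2 CPM in control tumors and at 1385, 2148, 1377 and 845 CPM in WDR11OE tumors 1 to 4. WDR11OE tumor 2 was highest and WDR11OE tumor 4 lowest, so the groups overlapped. The log2 fold change was 0.37 (SE 0.29, 95% interval −0.30 to 1.05, edgeR adjusted p = 0.368). Over the 16 alternatives it ran from 0.08 without WDR11OE tumor 2 to 0.56 without WDR11OE tumor 4 (edgeR adjusted p = 0.0718) or with the GC trend removed, and it passed in none. The row for Mir675, which lies inside H19, was at 0 counts in all 7 tumors, and since HT-seq can leave out reads that overlap more than 1 feature, and its mode is not given in the sources used here, this 0 says nothing of the microRNA.

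The ratio of H19 to Igf2 within a tumor is free of the scaling between libraries. In CPM, not corrected for gene length, the ratio was 0.416, 0.747 and 0.897 in control tumors 1, 2 and 3. It was 2.76, 3.03, 1.58 and 1.74 in WDR11OE tumors 1 to 4. Igf2 had more reads than H19 in every control tumor and fewer in every tumor labelled WDR11OE. This crossing is one of reads, and Igf2 is the longer transcript. Per kilobase, H19 was above Igf2 in control tumors 2 (492 against 284 RPKM) and 3 (502 against 241 RPKM). In control tumor 1 it was below (409 against 424 RPKM). The difference between the groups was 1.74 on the log2 scale, or 3.35-fold, with p = 0.0286 by the two-sided exact permutation test, the smallest it can give, and an adjusted p = 0.0571 over the 4 ratios compared, which misses the threshold of 0.05. Leaving out each tumor in turn gave differences from 1.42 to 1.97.

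Other features at this locus did not pass the test. Igf2as, annotated antisense to Igf2, was at 17.7 to 25.3 CPM in control and 13.7 to 21.9 CPM in WDR11OE (log2 fold change −0.18, SE 0.19, edgeR adjusted p = 0.506). Mir483, inside Igf2, was at 0.123 to 0.723 CPM in control and 0.537 to 0.801 CPM in WDR11OE (log2 fold change 0.43, SE 0.53, edgeR adjusted p = 0.574). The labels name a kit that does not mark strand, whereas the study's methods call the sequencing stranded, and the strand setting of the counting is not given in the sources used here, so Igf2 and Igf2as reads may not be separated, nor those of the pairs Mest and Copg2 or Igf2r and Airn below. The 109 other tested genes within 5 Mb of Igf2 had a median log2 fold change of 0.04, and 0.917% of them were below Igf2. Of these 109, 13 were lower (beside 15.8% of all tested genes) and 16 were higher (beside 18.1%).

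Igf2r, the mannose 6-phosphate receptor that clears the IGF2 ligand, lies at chr17:12875272-12962530 on the minus strand. Igf2r was at 341, 298 and 340.4 CPM in control tumors and at 288, 313, 291 and 231 CPM in WDR11OE tumors 1 to 4. Control tumor 2 lay within the range of the tumors labelled WDR11OE. The log2 fold change was −0.22 (SE 0.12, 95% interval −0.49 to 0.05, edgeR adjusted p = 0.195). Airn, the noncoding RNA antisense to Igf2r that silences it on the paternal copy, gave −0.28 (SE 0.25, edgeR adjusted p = 0.440). The ratio of Igf2 to Igf2r was 6.83, 5.23 and 3.90 in control tumors and 1.74, 2.26, 3.00 and 2.10 in WDR11OE tumors. All control ratios were above all ratios of the tumors labelled WDR11OE, by 1.22 on the log2 scale in the mean (two-sided exact permutation p = 0.0286, adjusted p = 0.0571 over the 4 ratios). Around Igf2r, 23 of 65 tested genes within 5 Mb were higher (beside 18.1% of all tested genes) and 1 was lower (beside 15.8%), with a median log2 fold change of 0.41.

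**Figure D3:**
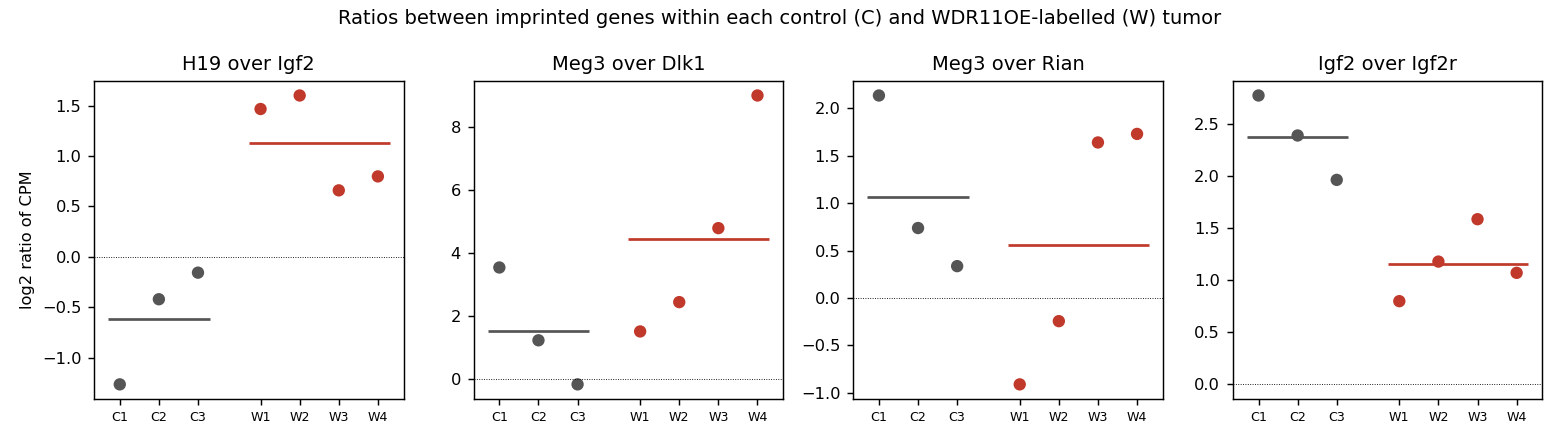
The log2 ratio of CPM between 2 imprinted genes within each tumor is plotted for 3 control (C, gray) and 4 WDR11OE-labelled (W, red) tumors, with lines at group means. The ratios are not corrected for gene length. H19 over Igf2 is below 0 in every control tumor and above 0 in every WDR11OE-labelled tumor, Igf2 over Igf2r is higher in every control tumor, and the groups overlap for both Meg3 ratios.

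Dlk1 encodes a transmembrane ligand of the Delta and Notch family that holds progenitors of fat and other tissues undifferentiated. It lies at chr12:110691033-110701546 on the plus strand. Dlk1 was at 11.4, 9.51 and 12.04 CPM in control tumors, from 412, 399 and 393 reads. It was at 1.78, 1.47, 4.01 and 0.635 CPM in WDR11OE tumors 1 to 4, from 75, 118, 130 and 58 reads. The control tumors lay close together and above every tumor labelled WDR11OE, among which tumor 3 was highest and tumor 4 lowest. Dlk1 fell by 2.49 on the log2 scale, or 5.64-fold (SE 0.55, 95% interval −3.77 to −1.22, edgeR adjusted p = 0.0118), and p was 0.0571 by the two-sided exact permutation test. It stayed past the threshold in all 16 alternatives, from −3.09 without WDR11OE tumor 3 to −2.20 without WDR11OE tumor 4.

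Meg3, a maternally expressed noncoding RNA that lies downstream of Dlk1 at chr12:110779211-110809936, varied most between tumors of the same group. Meg3 was at 135, 22.5 and 10.8 CPM in control tumors 1, 2 and 3, and at 5.16, 8.22, 113 and 349 CPM in WDR11OE tumors 1, 2, 3 and 4. The highest tumor was 67.6-fold above the lowest, and both belonged to the group labelled WDR11OE. The log2 fold change was 1.09 (SE 1.496, 95% interval −2.42 to 4.59, edgeR adjusted p = 0.623), and leaving out each tumor gave values from −0.43 without WDR11OE tumor 4 to 2.83 without control tumor 1. Rian, a maternal host transcript of small nucleolar RNAs at chr12:110842155-110899919, was at 30.6, 13.5 and 8.52 CPM in control tumors and at 9.76, 9.76, 36.1 and 105 CPM in WDR11OE tumors 1 to 4. Its log2 fold change was 1.20 (SE 0.92, 95% interval −0.97 to 3.37, edgeR adjusted p = 0.367), and leaving out each tumor gave values from 0.07 without WDR11OE tumor 4 to 1.86 without control tumor 1.

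The microRNA precursors on the same strand had few reads and the same highest tumor. Within 250 kb of Meg3 the annotation places 52 such rows, of which 48 had reads and 0 passed the filter on low counts. Their summed counts came to 2.89, 1.03 and 0.398 CPM in control tumors 1, 2 and 3. They came to 0.639, 1.01, 4.99 and 11.5 CPM in WDR11OE tumors 1 to 4. By CPM, WDR11OE tumor 4 was the highest tumor in 45 of the 52 rows. Mir453 had 94 reads over all tumors, Mir382 had 77 and Mir127 had 69, with 75, 50 and 49 of them in WDR11OE tumor 4. Mirg, a further noncoding RNA of this strand, was at 2.17 to 2.97 CPM in control and 1.89 to 8.50 CPM in WDR11OE (log2 fold change 0.65, SE 0.55, edgeR adjusted p = 0.412). Rtl1, a paternally expressed gene between Meg3 and Rian, was at 0.111 to 0.582 CPM in control and 0.0947 to 0.277 CPM in WDR11OE (log2 fold change −1.24, SE 0.60, edgeR adjusted p = 0.156). As the strand setting of the counting is not given, reads from opposite strands may not be separated in this cluster either.

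The order of the 7 tumors by Meg3 was their order by neuron markers. Across the 7 tumors the log2 CPM of Meg3 and the mean log2 CPM of the 7 neuron markers gave Pearson's r = 0.943 (exact permutation p = 0.00159, adjusted p = 0.0159 over the 10 members) and Spearman's rho = 1 (exact permutation p = 0.000397, the smallest it can give, adjusted p = 0.00397). Without WDR11OE tumors 1 and 4, the farthest from the median of the marker mean, r was 0.921. Rian gave r = 0.834 (exact permutation p = 0.0175, adjusted p = 0.0873) and rho = 0.821 (exact permutation p = 0.0341, adjusted p = 0.114), and r = 0.830 without those 2 tumors. Dlk1 gave r = 0.110 and Igf2 r = 0.344 (exact permutation p = 0.804 and p = 0.443), and without those 2 tumors r was 0.631 and 0.726, so these low values rest on them. H19 gave the lowest value, r = −0.741 (exact permutation p = 0.0532, adjusted p = 0.133). No member other than Meg3 passed the adjustment. The groups are too small for these relations to be given within each.

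With the neuron marker mean as a covariate, an alternative chosen after the data were seen, 2 of 10 members were higher. In that fit 4011 of all 17389 tested genes were higher and 3460 were lower. Meg3 then gave 1.25 (SE 0.28, edgeR adjusted p = 0.00898) and Rian 1.32 (SE 0.22, edgeR adjusted p = 0.00269), so their call depends on that term. The number of lower members was 5 in that fit too, with Igf2 at −1.36 (edgeR adjusted p = 0.00598) and Dlk1 at −2.55 (edgeR adjusted p = 0.00781). The ratio of Meg3 to Dlk1 ran from 0.893 to 11.7 in control tumors and from 2.87 to 517 in WDR11OE tumors, and the groups overlapped (mean difference 2.90 on the log2 scale, two-sided exact permutation p = 0.257, adjusted p = 0.343). The ratio of Meg3 to Rian ran from 1.26 to 4.40 in control and from 0.531 to 3.32 in WDR11OE (mean difference −0.52 on the log2 scale, two-sided exact permutation p = 0.543, adjusted p = 0.543). The 87 other tested genes within 5 Mb of this cluster had a median log2 fold change of −0.02, and none of them was below Dlk1. Of these 87, 16 were lower (beside 15.8% of all tested genes) and 12 were higher (beside 18.1%).

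**Figure D4:**
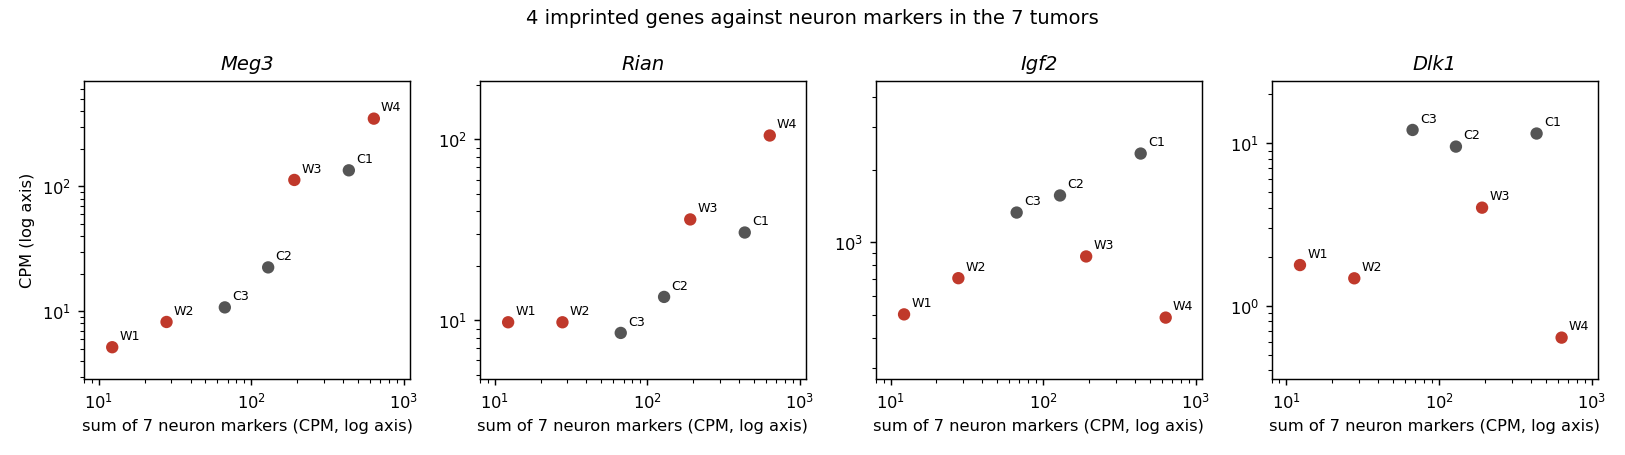
CPM of Meg3, Rian, Igf2 and Dlk1 is plotted against the summed CPM of 7 neuron markers in each tumor, both on log axes, with control tumors (C) in gray and WDR11OE-labelled tumors (W) in red. Meg3 rises with the markers from WDR11OE tumor 1 (5.16 CPM at 12.3) to WDR11OE tumor 4 (349 CPM at 636), while Dlk1 is higher in the 3 control tumors at any marker level.

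Peg3 and Plagl1 are paternally expressed zinc finger proteins, and Plagl1 is known to regulate other imprinted genes, H19 and Igf2 among them. Peg3, at chr7:6656603-6683132, was at 1230.6, 970 and 1038 CPM in control tumors and at 622, 619, 877 and 800.2 CPM in WDR11OE tumors 1 to 4. The groups did not overlap, and WDR11OE tumor 3 lay nearest to the controls. Peg3 fell by 0.57 on the log2 scale, or 1.48-fold (SE 0.16, 95% interval −0.95 to −0.18, edgeR adjusted p = 0.0332, two-sided exact permutation p = 0.0571). It missed the threshold without control tumor 1 (−0.47), 2 (−0.64) or 3 (−0.60) and without WDR11OE tumor 1 (−0.54) or 2 (−0.55), with edgeR adjusted p from 0.0527 to 0.103. The 82 other tested genes within 5 Mb of Peg3 had a median log2 fold change of 0.01, and 23.2% of them were below Peg3. Of these 82, 18 were lower (beside 15.8% of all tested genes) and 8 were higher (beside 18.1%).

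Plagl1, at chr10:12810497-12851500, was at 100.2, 65.3 and 67.1 CPM in control tumors and at 53.4, 52.1, 60.7 and 55.5 CPM in WDR11OE tumors 1 to 4. Control tumor 1 stood above the other controls, and the groups did not overlap. Plagl1 fell by 0.48 on the log2 scale, or 1.40-fold (SE 0.16, 95% interval −0.85 to −0.12, edgeR adjusted p = 0.0478, two-sided exact permutation p = 0.0286). Without control tumor 1 the log2 fold change was −0.26 (edgeR adjusted p = 0.0551), and the call was also lost without control tumor 3 (−0.58) and without WDR11OE tumor 1 (−0.51), 2 (−0.50), 3 (−0.53) or 4 (−0.49), with adjusted p up to 0.0923. limma with voom, the study's method, gave −0.46 (adjusted p = 0.0604).

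Grb10 encodes an adaptor that binds the insulin and IGF1 receptors and dampens their signal, and its paternal copy is the active one in neurons. Grb10, at chr11:11830511-11938686 on the minus strand, was at 751, 766 and 780.2 CPM in control tumors and at 509, 341, 486 and 234 CPM in WDR11OE tumors 1 to 4. The control tumors lay within 1.04-fold of each other and above every tumor labelled WDR11OE, where WDR11OE tumor 4 was lowest. Grb10 fell by 0.96 on the log2 scale, or 1.95-fold (SE 0.25, 95% interval −1.56 to −0.37, edgeR adjusted p = 0.0243, two-sided exact permutation p = 0.0286). The call was lost without control tumor 1 (−0.98), 2 (−0.97) or 3 (−0.95) or WDR11OE tumor 2 (−0.93), with edgeR adjusted p from 0.0573 to 0.0782. Of its 2 neighbors on the imprinted list, Cobl, an actin nucleator, fell by 1.90 on the log2 scale (SE 0.20, edgeR adjusted p = 0.00108), from 40.8 to 57.3 CPM in control to 10.9 to 17.9 CPM in WDR11OE. The other, Ddc, which encodes aromatic amino acid decarboxylase, was at 1.01 to 1.76 CPM in control and 2.07 to 2.50 CPM in WDR11OE, with no overlap, and did not pass (log2 fold change 0.75, SE 0.25, edgeR adjusted p = 0.0533).

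Mest encodes a paternally expressed hydrolase-like protein of mesoderm. Mest, at chr6:30673547-30698457, was at 9.81, 10.1 and 12.1 CPM in control tumors and at 4.76, 4.55, 8.38 and 11.6 CPM in WDR11OE tumors 1 to 4. WDR11OE tumor 4 lay among the controls, so the groups overlapped. The log2 fold change was −0.54 (SE 0.34, 95% interval −1.35 to 0.26, edgeR adjusted p = 0.272), and without WDR11OE tumor 4 it was −0.86 (edgeR adjusted p = 0.0444). Copg2, a coat protein gene antisense to Mest with overlapping ends, rose by 0.51 on the log2 scale, from 31.1 to 43.2 CPM in control to 50.6 to 58.3 CPM in WDR11OE (SE 0.12, edgeR adjusted p = 0.0161).

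The genes whose levels most resembled those of 4 members over the 7 tumors were ranked by Pearson's r of log2 CPM among 14806 genes. For Igf2 they were Lgr4 (r = 0.997), Notch2 (r = 0.994) and Prelp (r = 0.990), and for Dlk1 Wee1 (r = 0.995), Nfatc4 (r = 0.987) and B4galt1 (r = 0.987). For Meg3 they were Snhg11 (r = 0.997), Gabrg3 (r = 0.996) and Cntn5 (r = 0.995), the last a neuronal adhesion protein and Gabrg3 a subunit of the GABA-A receptor. For H19 they were Thbs4 (r = 0.993), Id1 (r = 0.972) and Gm10020 (r = 0.967). Among the members the closest pairs were Dlk1 and Grb10 (r = 0.958) and Meg3 and Rian (r = 0.957), and Igf2 with Dlk1 gave r = 0.919. These points share the same 7 libraries and their depth, and the highest of many r values is a description.

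Imprinted genes outside the 10 members moved in both directions. Of 63 listed, 56 had a row and 50 were tested, of which 9 were lower (beside 15.8% of all tested genes), 7 were higher (beside 18.1%) and 34 did not pass, with a median log2 fold change of 0.09. Of the lower ones 5 also passed the 2-fold limit, with Cobl given above. Peg10, a paternally expressed gene derived from a retrotransposon, was the lowest at −2.05 (SE 0.32, edgeR adjusted p = 0.00325), from 42.6 to 71.1 CPM in control to 9.95 to 22.9 CPM in WDR11OE. Gab1, an adaptor downstream of growth factor receptors, fell by 1.12 (SE 0.10, edgeR adjusted p = 0.00104), with control tumors at 176 to 190 CPM and WDR11OE tumors at 71.9 to 96.5 CPM. Asb4 fell by 1.19 and Peg12 by 1.16 on the log2 scale (edgeR adjusted p = 0.0234 and edgeR adjusted p = 0.0271). The higher ones were Nespas, Mcts2, Commd1, Nnat, Ube3a, Copg2 and Inpp5f, with log2 fold changes from 0.47 to 0.86, and the largest positive value was that of Th, the tyrosine hydroxylase gene beside Igf2, at 1.39, which did not pass (SE 1.58, edgeR adjusted p = 0.545). The number lower was 5 without control tumor 2 and 4 without WDR11OE tumor 2 or 3.

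Genes of the IGF pathway outside the members were lower or did not pass. Of 21 listed, 20 were tested, 10 were lower (beside 15.8% of all tested genes) and 0 were higher (beside 18.1%). The median log2 fold change was −0.60 against 0.08 over all tested genes. Leaving out each tumor in turn gave 8 to 11 lower. The fibroblast and meningeal sum given above was also lower in every tumor labelled WDR11OE, as were the endothelial sum (97.3 to 134 CPM in control, 80.3 to 91.8 CPM in WDR11OE) and the pericyte sum (204 to 222 CPM and 132 to 190.0 CPM), and their part in the result was not tested. By role, 3 of 3 tested adaptors, 3 of 7 binding proteins and 2 of 4 proteases and regulators of binding proteins were lower. So were 1 of 3 mRNA-binding proteins and 1 of 2 receptors, all beside the same 15.8%, and these classes are small. The ligand Igf1 did not pass (log2 fold change −0.37, SE 0.19, edgeR adjusted p = 0.178).

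Pappa2, a protease that frees IGFs from their binding proteins, was at 28.7, 20.4 and 37.0 CPM in control tumors and at 2.63, 4.18, 6.53 and 4.29 CPM in WDR11OE tumors 1 to 4. It was the lowest of the list at −2.70 (SE 0.33, edgeR adjusted p = 0.00144), with no overlap between the groups. Stc1, a secreted inhibitor of such proteases, fell by 1.08 (SE 0.25, edgeR adjusted p = 0.0147). Igfbp5, which binds IGFs in the matrix, fell by 1.24 (SE 0.25, edgeR adjusted p = 0.00890), from 245 to 430.1 CPM in control to 111 to 188 CPM in WDR11OE.

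Irs1, the adaptor that carries the signal from the insulin and IGF1 receptors, was at 196, 233 and 243 CPM in control tumors and at 109, 98.8, 127 and 100.03 CPM in WDR11OE tumors 1 to 4. It fell by 1.05 on the log2 scale (SE 0.12, edgeR adjusted p = 0.00119), and the groups did not overlap. Igf2bp2, which binds Igf2 mRNA, fell by 1.78 (SE 0.37, edgeR adjusted p = 0.00967), with 6.39 to 19.4 CPM in control and 2.88 to 4.51 CPM in WDR11OE. Its relative Igf2bp1 had the highest value of the list, 0.60, and did not pass (SE 0.29, edgeR adjusted p = 0.156). Igf2bp1 was at 18.3 to 45.2 CPM in control and 47.7 to 61.5 CPM in WDR11OE, with no overlap. The receptor Igf1r gave −0.39 (SE 0.17, edgeR adjusted p = 0.118).

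**Figure D5:**
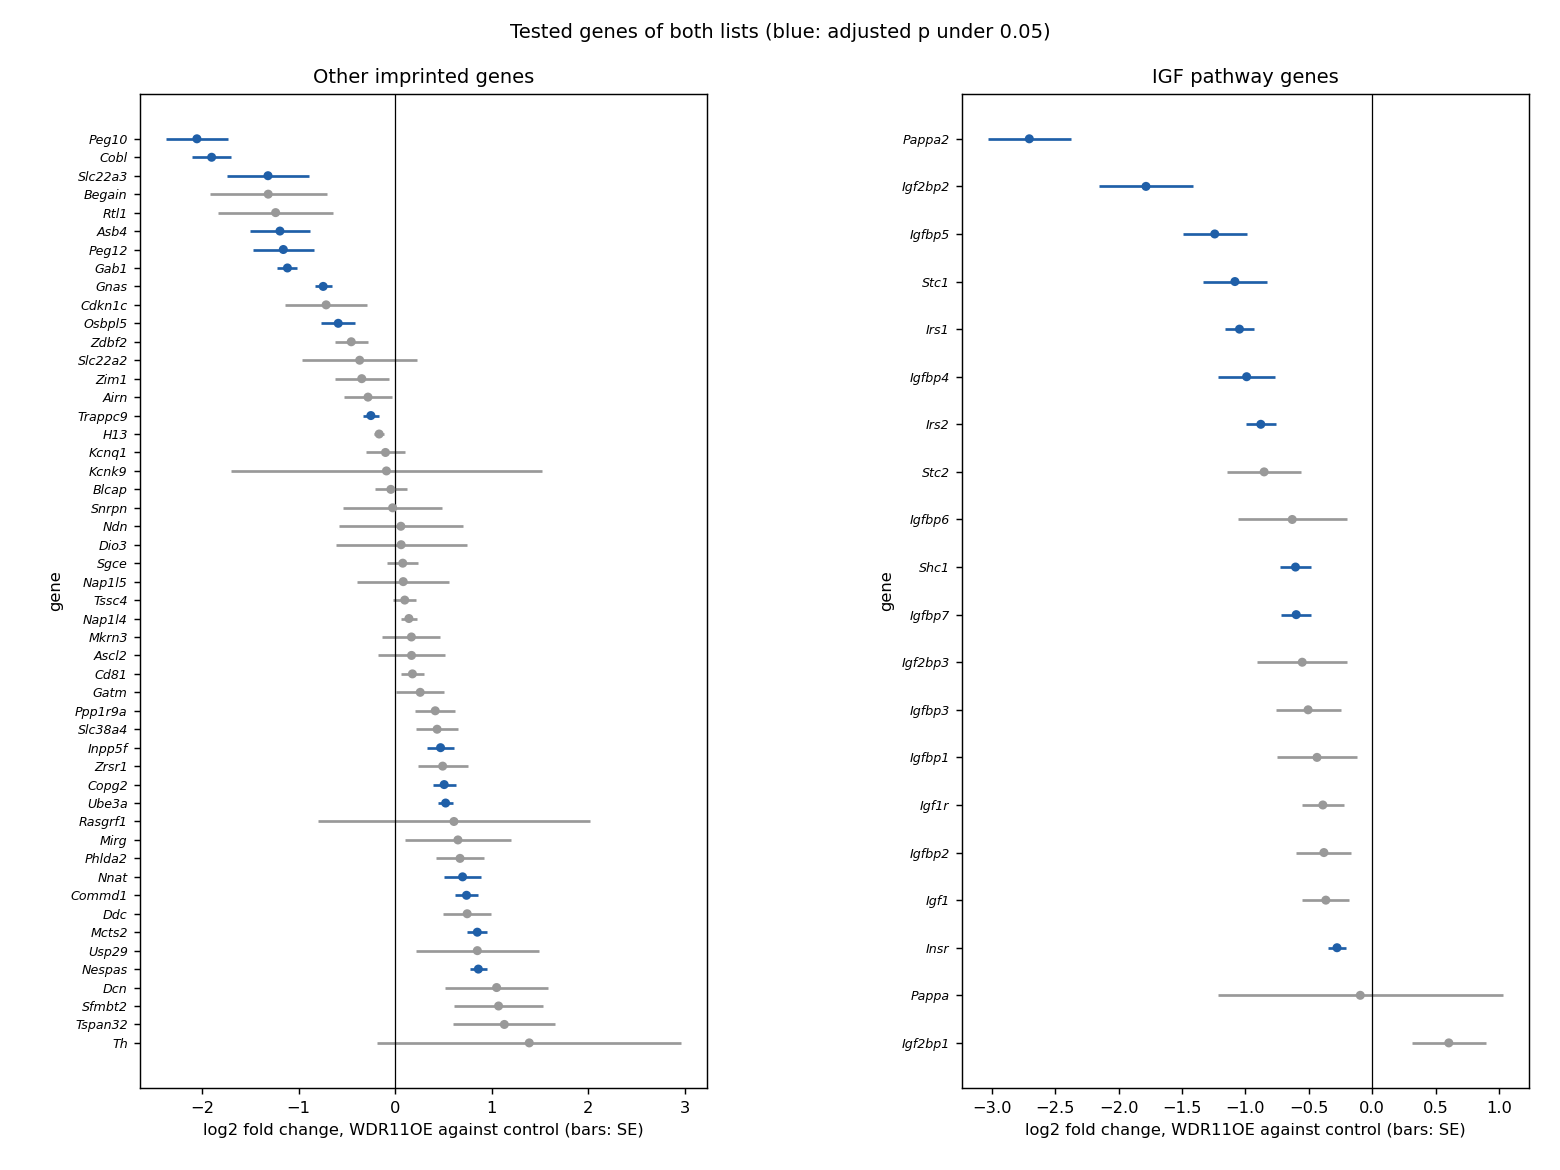
Log2 fold changes of WDR11OE against control are plotted with SE bars for the 50 tested imprinted genes outside the members (left) and the 20 tested IGF pathway genes (right), with blue for an edgeR adjusted p under 0.05. Imprinted genes lie on both sides of 0, from Peg10 at −2.05 to Th at 1.39, while 19 of the 20 IGF genes lie below 0 and the blue ones are all lower.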

How the data were processed

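RNA-seq counts were analysed for 4 G3 MBs labelled WDR11OE and 3 controls. Per the study's methods, reads were mapped to NCBIM37.67 with the StrongArm pipeline and counted with HT-seq on a GENCODE annotation. The submitters' processing notes name CASAVA 1.7, STAR, BWA, HTSeq and mm9. The authors deposited whole-number counts per gene and tumor without normalization, and versions and strand setting of the counting are not given in the sources used here. All 7 count columns were matched to samples by the labels. Replicate numbers follow sample order and are names only.

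Of the 34592 features, 33606 (97.1%) matched GENCODE vM1 on NCBIM37 for coordinates and exon length. RPKM is the TMM-scaled CPM per kilobase of merged exons. Counts were filtered by filterByExpr in edgeR 4.0.16 (R 4.3.3), keeping 17389 genes, then TMM scaling was applied, followed by the two-sided quasi-likelihood test with condition as the only term and Benjamini-Hochberg adjustment over all tested genes. The test was checked on simulated data. Log2 CPM used a prior count of 2. Exact permutation tests ran over all 35 splits of the tumors. Neighboring genes were those within 5 Mb, without the members and the listed imprinted genes. A count of 3 reads corresponded to 0.0329 to 0.0924 CPM per tumor, a limit that covers the sampling of reads only.

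Named genes were the members, listed genes past the stricter call and the lowest and highest of each list, genes overlapping a member, the 3 most similar genes for 4 members, and tested microRNA rows. Outside this rule, Ddc and the untested microRNA rows near Meg3 were picked with their values in view. Pax6, Zic1, Snap25, the other markers, Mirg, Rtl1, Igf1, Igf1r and the higher imprinted genes are named beside these. The members, lists and tests were chosen with earlier results of these data known. Alternatives were limma 3.58.1 with voom, DESeq2 1.42.0, scaling by library size, by upper quartile or by DESeq2 size factors, no filter, a filter of 1 CPM in 3 tumors, removal of the GC trend, leaving out each tumor, and, chosen after seeing the data, a neuron marker covariate. The authors' exome data were not analysed here.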

Additional observations from a re-analysis of the deposited data

How the results depend on the processing

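No paired analysis was possible because the labels do not pair WDR11OE tumors with control tumors, and the replicate numbers used here follow sample order. Igf2 and Dlk1 kept their direction and their side of the threshold under all 16 alternatives, and H19 and Igf2r stayed on the other side of it under all 16 as well. Leaving out each tumor in turn gave 2 to 5 lower members instead of 5 and 4 to 9 lower genes instead of 9 among the other imprinted genes. In the same runs the log2 fold change ranged from −0.43 (without WDR11OE tumor 4) to 2.83 for Meg3, from −0.67 to −0.47 for Peg3, from −0.60 to −0.26 for Plagl1, from −1.14 to −0.78 for Grb10, from −0.86 to −0.44 for Mest, from 0.07 to 1.86 for Rian and from 0.08 to 0.56 for H19, and the difference in the log2 ratio of Meg3 to Rian from −0.91 to 0.017 (without control tumor 1). A tumor fewer also leaves less to estimate the spread from. Plagl1 missed the threshold with limma and voom (−0.46), with library size scaling (−0.49) and with upper quartile scaling (−0.45), and Meg3 was at 0.15 and Rian at 0.72 with limma and voom, and the cause was not tested. With the neuron marker covariate 2 members instead of 0 and 12 instead of 7 of the other imprinted genes were higher, with Meg3 at 1.25 and Rian at 1.32. Over all 17389 tested genes, 4011 instead of 3150 were higher in that fit. The median log2 fold change of all genes was between 0.04 and 0.12 under the scaling alternatives. Over all genes, the number higher was 3150, and 1560 without WDR11OE tumor 1, 1657 without WDR11OE tumor 2, 2045 without control tumor 2 and 2093 without a filter. With 3 tumors against 4 the exact permutation test cannot go below p = 0.0286, and for Meg3 and Rian the spread within the WDR11OE group, 67.6-fold and 10.8-fold, left intervals that span both directions.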
